A study of Drosophila melanogaster with 32 samples.

Results

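The comparison described here was between heads of trained and naive male Drosophila melanogaster of the strain labelled w+hsp70-, with 3 libraries collected 5 h after training and 3 libraries from naive flies, 6 of the 32 libraries in the series. Libraries were chosen by their titles, and all 17559 FlyBase genes counted in each library were used. The study concerns Hsp70 and behavioural training in 4 strains, labelled w+hsp70-, hsp70-, hsp70-1c and hsp70-4c. Per the labels, each biological replicate was a pool of about 100 flies, frozen at the time point and decapitated, and polyadenylated RNA was sequenced as single-end reads of 75 bp.

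Both w+hsp70- groups carry the same label for genotype, so the loss of hsp70 and the w+ gene named in it are shared by trained and naive flies. The labels give neither the alleles behind these names nor the age of the flies, and they do not describe the training. A whole head holds brain, eyes, cuticle, muscle and a layer of fat body, and the counts add them up.

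Inducible Hsp70 proteins are chaperones that fold damaged proteins during heat and other stress. Long-term memory in flies depends on cAMP signalling and on new transcription in the hours after training, and immediate-early genes such as Hr38 and sr are used as reporters of neuronal activity. The fat body of the head is an endocrine and metabolic tissue that stores lipid and glycogen, responds to the adipokinetic hormone and to nutrients, and makes antimicrobial peptides.

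The genotype label was checked first. Across the 3 libraries at 5 h and the 3 naive libraries, 5 of the 6 inducible Hsp70 genes had 0 reads in every library, and Hsp70Aa had 1 read in a single naive library. In naive hsp70-1c libraries Hsp70Aa and Hsp70Bc also had only 0 to 3 reads each. Low Hsp70 reads therefore do not tell w+hsp70- from hsp70-1c. In hsp70-4c, by contrast, Hsp70Bc had 29 to 36 reads per library at 5 h and 34 to 54 in naive flies. The eye pigment transporter gene w had 77.7 ± 5.49 CPM (counts per 1000000 assigned reads) at 5 h and 83.2 ± 13.5 CPM in naive flies (SD, n = 3 each), against 0.138 ± 0.0211 CPM at 5 h in the strain hsp70-. Reads assigned to genes numbered 6172158 to 6917014 at 5 h and 5540847 to 6804979 in naive libraries, and reads that met no annotated gene made up 61.76% to 66.85% of each library at 5 h and 64.27% to 65.79% of each naive library.

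Of the defining markers of neurons, glia, photoreceptors, muscle, fat body, haemocytes and gut, all but the fat body marker Cg matched a gene symbol. The matched markers were all detected in both groups and 0 of them were called as changed. Summed glial markers were 1997 to 2055 CPM at 5 h and 1940 to 1978 CPM in naive flies for 4 defining markers, whereas the wider list of 20 glial genes summed to 4828 to 4907.5 CPM at 5 h and 4906.9 to 4998.9 CPM in naive flies, with a median log2 change of -0.07. The 3 matched fat body markers summed to 1446 to 1756 CPM at 5 h and 1567 to 2046 CPM in naive flies. Gut digestive enzymes were the most variable, at 6226 to 6791 CPM at 5 h and 3059 to 7766 CPM in naive flies. Summed markers of the male reproductive tract were at most 1.78 CPM at 5 h and 1.34 CPM in naive flies. In bulk samples such as these, fewer cells of a type and less RNA per cell cannot be told apart.

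Of the 3 naive libraries, replicate 3 stood apart. It lay at 1.03 on the leading dimension of a multidimensional scaling plot, on which the other 5 libraries lay between -0.61 and 0.09. In it 8 genes were under 1 CPM that were at 3 CPM or more in each of the other 5 libraries. The highest of these was CG16826, with 0.838 CPM in naive replicate 3 and 52.0 to 1238 CPM in the others, and 0 of the 8 genes were called as changed.

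Training was followed by changes in a small part of the transcriptome. Of 10015 genes tested with edgeR's quasi-likelihood test, 193 were called at an adjusted p under 0.05, which is 1.93% of the genes tested. Of these, 98 (0.979%) were higher and 95 (0.949%) were lower at 5 h, with median log2 changes of 0.65 and -0.64. Only 23 of the higher genes and 15 of the lower genes changed at least 2-fold. In all 193 called genes the libraries at 5 h did not overlap with the naive libraries, as was also the case for 1702 of all genes tested (17.0%). Without naive replicate 3, 253 genes were called, 143 of them among the 193. Without naive replicate 1, 95 genes were called.

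**Figure D1:**
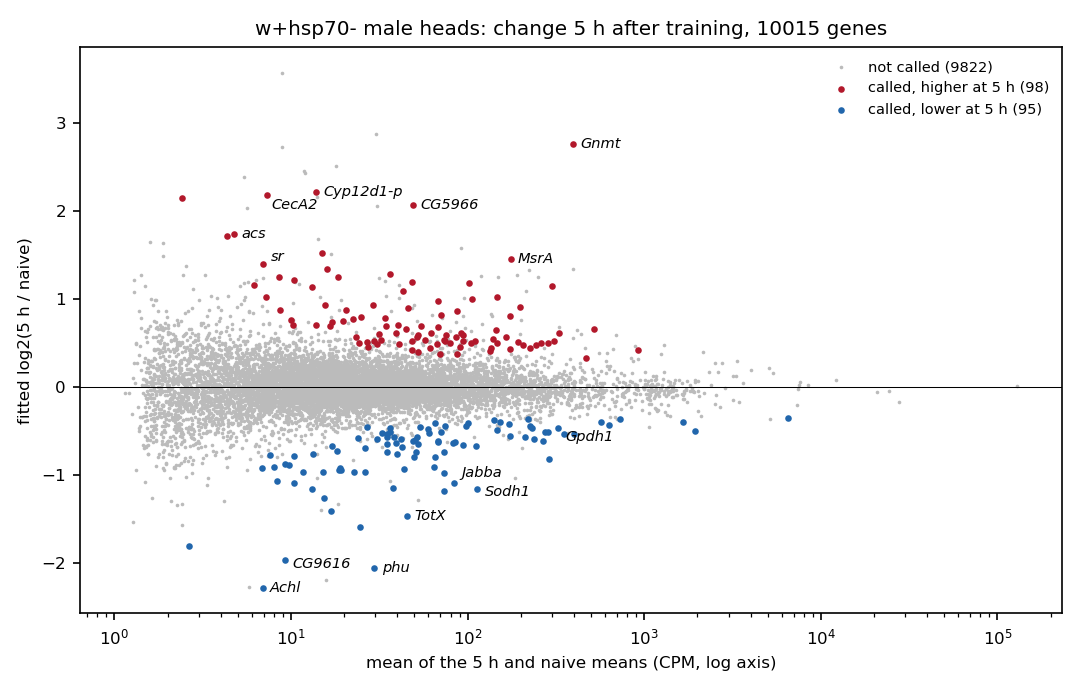
Fitted log2 ratio of 5 h over naive (vertical axis) against the mean level in CPM (log axis) for the 10015 genes tested in w+hsp70- heads; each point is a gene, red for the 98 called higher, blue for the 95 called lower and grey for the rest. Gnmt stands above all other called genes with 688 CPM at 5 h and 101 CPM in naive flies on average, and most called genes lie within 2-fold of no change.

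The largest rise among the called genes was that of Gnmt, glycine N-methyltransferase, which consumes S-adenosylmethionine to methylate glycine (3R, 12674608 to 12676084, plus strand, dm6). Gnmt had 835, 571 and 658 CPM at 5 h, against 98.3, 132 and 73.8 CPM in naive flies. Every 5 h library was at least 4 times as high as any naive library, a fitted fold of 6.78 (log2 2.76, SE 0.28, edgeR adjusted p 0.0166). The call did not depend on naive replicate 3, but it was lost without naive replicate 1 or without 5 h replicate 3, with adjusted p up to 0.127.

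Other enzymes around methionine rose with it. Of 14 tested genes of the methionine cycle and of methionine repair, 5 were called higher and 0 lower, against 0.979% and 0.949% of all genes. The median log2 change was 0.26 against 0.0014 over all genes tested. This list and those below were written with earlier results of these data known, so that their counts are descriptive and no independent support. Leaving out single libraries gave 4 or 5 calls. Summed over the list, the level was 1915 to 2296 CPM at 5 h and 1018 to 1109 CPM in naive flies.

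Within this list, Sam-S makes S-adenosylmethionine, the methyl donor that Gnmt uses. Sam-S had 401, 411 and 382 CPM at 5 h, against 253, 272 and 257 CPM in naive flies (log2 0.61, SE 0.08, adjusted p 0.000978). Ahcy hydrolyses the S-adenosylhomocysteine left after methyl transfer, and it had 161, 134 and 131 CPM at 5 h, against 78.7, 73.0 and 61.9 CPM in naive flies (log2 0.99, SE 0.11, adjusted p 0.000152). Cth, cystathionine gamma-lyase, takes the sulphur on to cysteine and had 85.6, 77.5 and 89.2 CPM at 5 h, against 58.1, 47.0 and 52.1 CPM in naive flies (log2 0.68, SE 0.10, adjusted p 0.0022). The calls of these 3 genes held whichever library was left out. Cbs, the enzyme before Cth in the same route, had a log2 change of 0.44 and did not pass (adjusted p 0.06).

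MsrA, methionine sulfoxide reductase A, repairs oxidised methionine and is also known as an ecdysone-induced gene (3L, 15511052 to 15513202, plus strand). MsrA had 296, 223 and 250 CPM at 5 h, against 96.5, 93.6 and 90.4 CPM in naive flies, a fold of 2.75 (log2 1.46, SE 0.11, adjusted p 4.83e-06). The 3 naive libraries were within a few CPM of each other, and all 5 h libraries were more than 2 times higher. SelR, which repairs the other stereoisomer, had a log2 change of -0.07, and the glutathione synthesis genes Gclc and Gclm had -0.10 and -0.08, none of which passed.

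A few other called enzymes are named here after their values were seen, from no list, so that no count of a pathway stands behind them. Pfas, of purine synthesis, had 104, 84.5 and 80.6 CPM at 5 h, against 46.2, 49.5 and 40.9 CPM in naive flies (log2 0.98, SE 0.11, adjusted p 0.000187). Smaller rises were called for Adsl (log2 0.74) and Prps (0.52), also of purine synthesis, for pug (0.55), a folate enzyme, and for ry (0.46), xanthine dehydrogenase. The call of ry was lost whichever library was left out and under DESeq2.

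**Figure D2:**
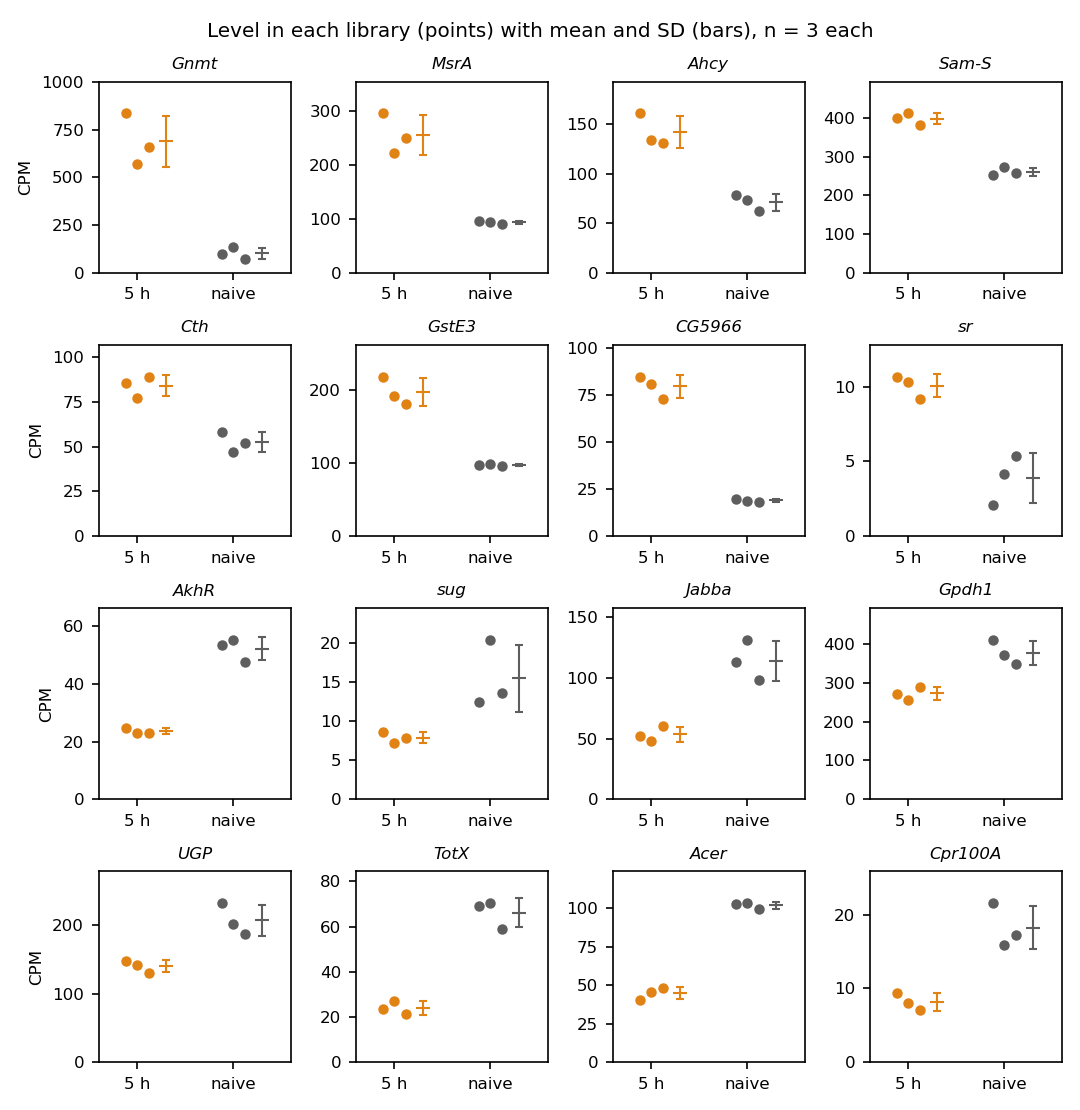
Level in CPM of 16 called genes in each library of w+hsp70- heads, 5 h libraries on the left in orange and naive libraries on the right in grey; points are libraries, and the bar beside them is the mean with its SD (n = 3 each), on axes that start at 0. In every panel the 3 libraries at 5 h lie wholly above or wholly below the 3 naive libraries, which holds for every called gene. In Gnmt they had 571 to 835 CPM at 5 h, against 73.8 to 132 CPM in naive flies.

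Sugar and polyol enzymes moved the other way. Of 31 tested genes for polyol, glycogen and sugar metabolism, 8 were called lower and 0 higher (25.8%, against 1.93% of all genes). A log2 change below 0 was seen in 26 of the 31, and the median was -0.23. The summed level was 5275 to 5374 CPM at 5 h and 5939 to 6749 CPM in naive flies. Leaving out single libraries gave between 3 and 11 lower calls and never a higher one. The fewest were left without naive replicate 1.

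Sodh1, a sorbitol dehydrogenase of the polyol route, fell most in this list, with 71.2, 69.9 and 69.2 CPM at 5 h, against 201, 140 and 129 CPM in naive flies (log2 -1.16, SE 0.16, adjusted p 0.00507). Its near-identical paralog Sodh2 was called lower as well (log2 -0.63), and reads may be split between the paralogs. Sodh2 is also overlapped by asRNA:CR45195 on the opposite strand, which was called lower (log2 -0.80), and with the strand setting of the counting not stated their reads cannot be told apart. Akr1B, an aldo-keto reductase of the aldose reductase family, had 188, 178 and 202 CPM at 5 h, against 328, 278 and 249 CPM in naive flies (log2 -0.59, adjusted p 0.00824). All 3 genes had their lowest naive library above their highest 5 h library, as did every gene called lower. Sodh1 lost its call without 5 h replicate 3 (adjusted p 0.0898) and Akr1B without 5 h replicate 2 (adjusted p 0.0529).

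Of the glycogen genes, UGP, which makes UDP-glucose, had 149, 143 and 131 CPM at 5 h, against 232, 202 and 187 CPM in naive flies (log2 -0.56, SE 0.10, adjusted p 0.00817). The glycogen branching enzyme AGBE was called lower too (log2 -0.63, adjusted p 0.016), whereas glycogen synthase, Glys, had -0.27 and glycogen phosphorylase, Glyp, had -0.23, and neither passed. The trehalose transporter Tret1-1 was called lower at -0.49 (adjusted p 0.0133), though in only 2 of 6 fits without 1 library, and UGP lost its call without naive replicate 1 (adjusted p 0.0523). Gpdh1, glycerol-3-phosphate dehydrogenase, had 271, 257 and 291 CPM at 5 h, against 411, 373 and 350 CPM in naive flies (log2 -0.47, adjusted p 0.0139). The antisense transcript lncRNA:CR44986 overlaps Gpdh1 and also fell (log2 -0.80). Reads of the 2 genes cannot be told apart either.

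Genes that read the nutritional state changed in both directions. Of 33 tested genes for insulin, nutrient and hormone signalling, 1 was higher and 2 were lower (9.09%, against 1.93% of all genes). AkhR is the receptor of adipokinetic hormone, the fly's counterpart of glucagon (2L, 6711286 to 6716186, minus strand), and it had 24.7, 22.9 and 23.1 CPM at 5 h, against 53.6, 55.3 and 47.6 CPM in naive flies (log2 -1.14, SE 0.11, adjusted p 4.38e-05). The sugar-responsive transcription factor sug fell to 8.57, 7.18 and 7.85 CPM at 5 h, against 12.4, 20.4 and 13.6 CPM in naive flies (log2 -0.96, adjusted p 0.0179). Lst, limostatin, a peptide hormone that restrains insulin release, had 54.2, 63.6 and 62.1 CPM at 5 h, against 34.3, 31.1 and 31.4 CPM in naive flies (log2 0.89, SE 0.10, adjusted p 0.00019). AkhR and sug at 5 h were below every naive library, and Lst at 5 h was above every naive library, a separation that every called gene had. AkhR was called without each library in turn, whereas sug lost its call in 3 of 6 such fits, with adjusted p up to 0.0994. The insulin-like peptide genes Ilp2, Ilp3, Ilp5 and Ilp6 and the hormone gene Akh did not pass, with log2 changes between -0.52 and 0.11.

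Lipid genes went both ways. Of 36 tested, 4 were called higher and 2 lower (16.7%, against 1.93% of all genes), and 26 of the 36 had a log2 change above 0 (median 0.11). The higher ones were 3 enzymes of fatty acid oxidation, Mtpalpha (log2 0.50, adjusted p 0.00817), Mcad (0.50, adjusted p 0.0272) and yip2 (0.50, adjusted p 0.0133), and Apoltp (0.37, adjusted p 0.0446), a carrier that loads lipid onto lipoproteins. The lower ones were ACC (-0.39, adjusted p 0.0489), which commits acetyl-CoA to fatty acid synthesis, and bgm (-0.91, adjusted p 8.43e-05), an acyl-CoA synthetase. Leaving out single libraries lowered this list to between 1 and 4 calls, with 1 left without naive replicate 2, while bgm was called each time and Mcad in 1 of 6 fits.

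Outside that list, Jabba, a lipid droplet protein, had 51.7, 48.2 and 60.3 CPM at 5 h, against 113, 131 and 98.1 CPM in naive flies (log2 -1.09, SE 0.12, adjusted p 0.000153). Jabba overlaps Cyp12b2 on the other strand by a few bases, and Cyp12b2 was also called lower (log2 -0.41). CG5966, a predicted lipase (X, 5988791 to 5992640, plus strand), had the smallest p of all genes: 84.7, 80.8 and 72.9 CPM at 5 h, against 19.8, 18.8 and 18.1 CPM in naive flies, a fold of 4.2 (log2 2.07, SE 0.11, adjusted p 4.88e-08). Each 5 h library was more than 3 times any naive library. sxe2, a lipase-like gene of the head fat body named for its sex-specific level, was lower (log2 -0.82, adjusted p 8.43e-05), and Cyp4d21, known as sxe1, was higher (0.45, adjusted p 0.0387).

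Detoxification enzymes were called in both directions. Of 32 tested glutathione S-transferases, 4 were called higher and 2 lower (median 0.13). In the cytochrome P450 list, 7 of 75 tested genes were called higher and 3 lower (median 0.01). Over all genes, 0.979% were called higher and 0.949% lower. The P450 list also holds Cyp1 and Cyp40, which are cyclophilins, and the pseudogenes Cyp6t2Psi and Cyp6a15Psi, none of which were called. The summed level of the glutathione S-transferases was 3892 to 4308 CPM at 5 h and 3315 to 3703 CPM in naive flies. That of the whole P450 list was 5484 to 5773 CPM at 5 h and 5236 to 5323 CPM in naive flies. Groups overlapped in neither list. GstE3 had 218, 191 and 181 CPM at 5 h, against 97.1, 98.1 and 95.7 CPM in naive flies (log2 1.02, SE 0.10, adjusted p 4.31e-05). GstE7 (0.82) and GstE8 (0.66), from the same gene cluster, rose as well, with GstD1 (0.42), whereas GstZ2 (-0.61) and GstE11 (-0.46) fell. The genes of the GstE cluster are similar to each other, so that reads shared between them may be split by the counting.

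Among the P450 genes, Cyp12d1-p had 31.3, 15.5 and 21.3 CPM at 5 h, against 4.34, 6.68 and 3.86 CPM in naive flies (log2 2.21, SE 0.32, adjusted p 0.0166), a call that was lost in 3 of 6 fits without 1 library. Cyp12d1-p has a near-identical copy, with which it may share reads. Cyp6w1 had 506, 376 and 364 CPM at 5 h, against 183, 210 and 170 CPM in naive flies (log2 1.15, SE 0.13, adjusted p 0.00094). It was called without each library in turn. Cyp6a8 (1.28), Cyp4e3 (0.61), Cyp309a1 (0.57) and Cyp4e2 (0.45) were also higher, and Cyp4ac1 (-0.54), Cyp305a1 (-0.51) and Cyp12b2 were lower. The count of calls in the P450 list ranged from 2 to 7 when single libraries were left out, with 2 without naive replicate 1.

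Antimicrobial peptide genes were called in both directions. Of 26 tested, 2 were called higher and 4 lower (23.1%, against 1.93% of all genes), with a median of -0.12. Fits without single libraries gave 1 to 8 calls, with 0 to 6 higher and 0 to 4 lower, and DESeq2 called 10. The fewest were left without naive replicate 2. The cecropins CecA1 and CecA2, which lie next to each other on 3R and are nearly identical, were the higher ones. CecA2 had 17.8, 8.68 and 9.48 CPM at 5 h, against 1.8, 3.79 and 2.51 CPM in naive flies (log2 2.18, SE 0.38, adjusted p 0.0272), and CecA1 had a log2 change of 1.72 (adjusted p 0.0288). Both calls were lost without naive replicate 1, without naive replicate 3 and with all 32 libraries in 1 fit. Of 6 fits without 1 library, CecA1 was called in 2 and CecA2 in 3.

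Attacins and diptericins, peptides against Gram-negative bacteria, had changes of similar size that did not pass. AttA had 29.6, 10.8 and 20.3 CPM at 5 h, against 4.04, 3.25 and 4.02 CPM in naive flies (log2 2.43, adjusted p 0.058). DptA had 16.0, 2.34 and 8.89 CPM at 5 h, against 1.65, 2.35 and 1.34 CPM in naive flies (log2 2.38, adjusted p 0.43). AttA was higher in every 5 h library, whereas the second 5 h library of DptA lay among the naive ones. The called lower peptides were all at high levels: Drsl5 had 1463, 1373 and 1464 CPM at 5 h, against 1972, 1846 and 1832 CPM in naive flies (log2 -0.39, adjusted p 0.00855), and Drsl4 (-0.43), BomS6 (-0.51) and BomBc2 (-0.40) fell by similar amounts. Drsl5 kept its call in 3 of 6 fits without 1 library, Drsl4 in 4, and BomS6 and BomBc2 in 2 each.

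PGRP-LB, an amidase that degrades peptidoglycan and damps the Imd pathway, was called higher (log2 0.51, adjusted p 0.0466), 1 of 42 tested immune recognition and signalling genes or 2.38%, near the 1.93% of all genes. It lost the call whichever library was left out. The Turandot genes encode secreted stress peptides, and 1 of the 4 tested was called. TotX (3R, 20904917 to 20905518, minus strand) had 23.5, 27.2 and 21.3 CPM at 5 h, against 69.3, 70.4 and 59.0 CPM in naive flies (log2 -1.47, SE 0.12, adjusted p 6.96e-06). TotA, by contrast, varied within groups, at 212, 36.9 and 22.96 CPM at 5 h and 94.3, 25.6 and 37.7 CPM in naive flies.

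**Figure D3:**
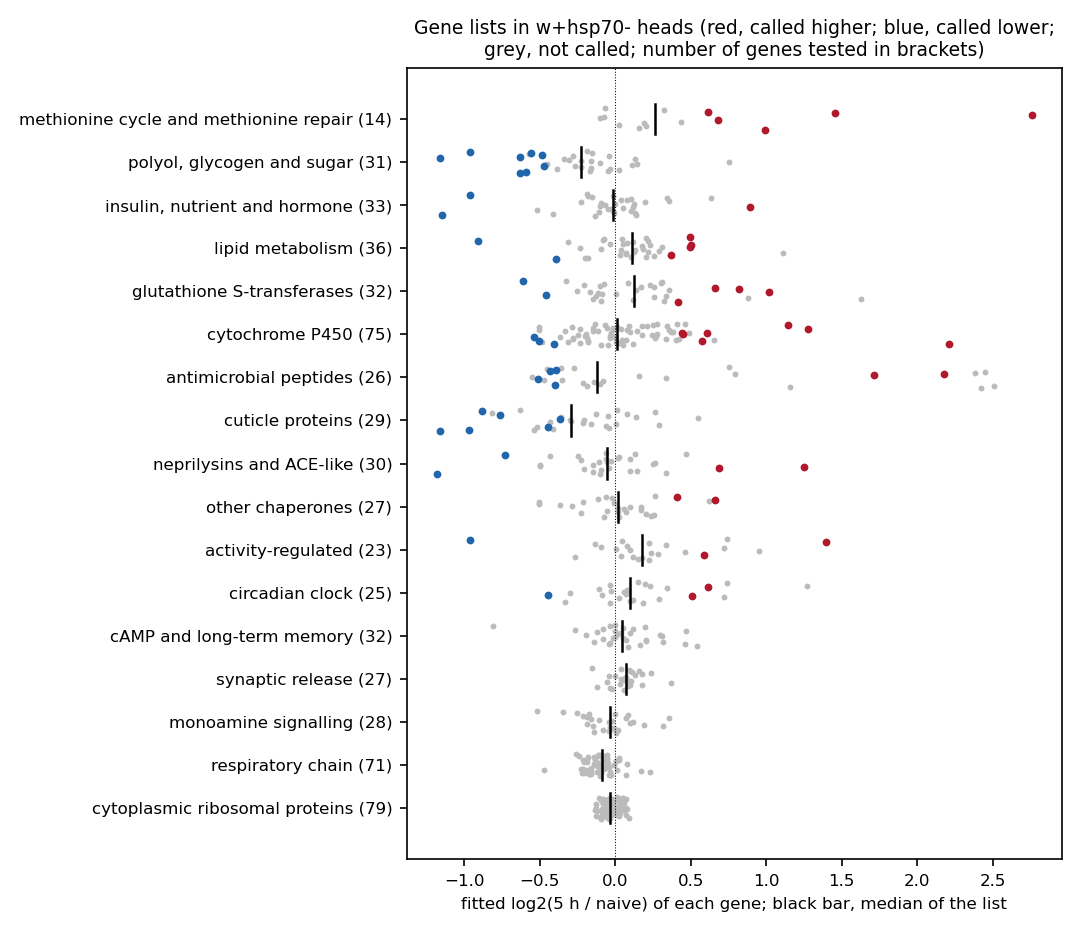
Fitted log2 ratio of 5 h over naive for the tested genes of 17 lists in w+hsp70- heads; each point is a gene, red if called higher, blue if called lower and grey if not called, and the black bar is the median of the list. The 5 called methionine genes all lie above 0 and the 8 called sugar and polyol genes all lie below 0, while the lists for memory, synaptic release, monoamines, the respiratory chain and ribosomal proteins hold no called gene.

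Peptidases and structural proteins of the cuticle followed. Acer, a secreted relative of angiotensin-converting enzyme (2L, 8521933 to 8525740, plus strand), had 40.7, 45.9 and 48.0 CPM at 5 h, against 103, 103 and 99.4 CPM in naive flies (log2 -1.18, SE 0.09, adjusted p 6.96e-06). Among 30 tested neprilysin and ACE-like genes, which cleave peptides outside cells, 13.3% were called, against 1.93% of all genes. Nepl6 was also lower (log2 -0.73, called in 2 of 6 fits without 1 library), and Nep7 (1.25) and Nep6 (0.69) were higher. Nep7 had 26.6, 25.04 and 25.6 CPM at 5 h, against 7.48, 14.8 and 10.6 CPM in naive flies (adjusted p 0.00408).

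Cuticle protein genes gave 6 lower and 0 higher calls among 29 tested (20.7%, against 1.93% of all genes), of 127 listed. The median log2 change was -0.29. The summed level was 1558 to 1744 CPM at 5 h and 1925 to 2147 CPM in naive flies. Cpr100A fell most, with 9.41, 8.01 and 7.11 CPM at 5 h, against 21.5, 15.9 and 17.3 CPM in naive flies (log2 -1.16, SE 0.17, adjusted p 0.00178). The others were Cpr11B (-0.97), TwdlE (-0.88), Cpr76Bc (-0.76), Cpr49Ae (-0.44) and Cpr65Au (-0.36). TwdlE overlaps the C-type lectin gene lectin-28C (-0.98) on the opposite strand. Leaving out single libraries gave 2 to 6 cuticle calls, with 2 without naive replicate 1.

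A pair of genes for carotenoid and retinoid handling were the called genes of the phototransduction list. It had 0 higher and 2 lower of 35 tested (5.71%, against 1.93% of all genes). ninaD, a scavenger receptor for carotenoid uptake, had 13.2, 13.9 and 12.7 CPM at 5 h, against 31.9, 24.4 and 19.8 CPM in naive flies (log2 -0.94, adjusted p 0.00719). pinta, a retinoid-binding protein of pigment cells, was lower at -0.73 (adjusted p 0.0118). ninaD lost its call without 5 h replicate 3 (adjusted p 0.0574), and pinta in 3 of 6 fits without 1 library. The rhodopsin genes ninaE and Rh2 to Rh7 had log2 changes between -0.17 and 0.33, none of which passed.

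Chaperones other than Hsp70 gave 2 higher and 0 lower calls of 27 tested (7.41%, against 1.93% of all genes). The median log2 change was 0.02. Hsp83, the fly Hsp90, had 749, 582 and 583 CPM at 5 h, against 431, 405 and 376 CPM in naive flies (log2 0.66, SE 0.10, adjusted p 0.00359). It was called without each library in turn, but not with all 32 libraries in 1 fit. The small heat shock protein gene l(2)efl rose by 0.41 (adjusted p 0.0489), a call that was lost whichever library was left out. Hsp68, the inducible relative of Hsp70 that remains in these flies, had 12.1, 15.4 and 13.3 CPM at 5 h, against 8.98, 7.95 and 9.39 CPM in naive flies (log2 0.62, adjusted p 0.0664). The groups did not overlap for Hsp68, but it did not pass the test.

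Activity-regulated genes gave 2 higher and 1 lower of 23 tested, against 0.979% and 0.949% of all genes. A log2 change above 0 was seen in 19 of the 23. The median was 0.18, against 0.0014 over all genes tested. sr, the fly EGR transcription factor, had 10.7, 10.3 and 9.19 CPM at 5 h, against 2.09, 4.15 and 5.36 CPM in naive flies (log2 1.39, SE 0.26, adjusted p 0.0098). Hr38, the fly NR4A receptor, had 15.03, 15.5 and 9.78 CPM at 5 h, against 4.64, 8.85 and 7.54 CPM in naive flies (log2 0.95, adjusted p 0.083). Both were higher in every 5 h library, but only sr was called. CG14186 was the other higher gene (log2 0.59, adjusted p 0.0327), and the lower one was sug, given above. Without 1 library at a time there were 1 to 4 calls, with 1 without naive replicate 2, and CG14186 was called in 1 of the 6 fits and sug in 3.

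Clock genes gave 2 higher and 1 lower of 25 tested, against 0.979% and 0.949% of all genes. The lower one was the UDP-glycosyltransferase gene Ugt35B1 (log2 -0.44), which is not part of the core clock. per, of the core clock, had 46.8, 47.2 and 48.1 CPM at 5 h, against 38.2, 23.8 and 30.5 CPM in naive flies (log2 0.61, SE 0.14, adjusted p 0.0414). Slob, which binds and modulates the Slowpoke potassium channel and cycles over the day, had 254, 203 and 224 CPM at 5 h, against 157, 146 and 175 CPM in naive flies (log2 0.51, SE 0.11, adjusted p 0.0192). The partner of per, tim, had a log2 change of 1.27 that did not pass (adjusted p 0.27). The labels give no hour of the day for either group, so that time after training and time of day cannot be told apart. Leaving out single libraries gave 0 to 5 clock calls, with 0 without 5 h replicate 3, and per was called in 1 of the 6 fits and Slob in 2.

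Genes of memory and of synapses gave no call in edgeR's test, which for lists of this size is near the 1.93% called over all genes and says little of the lists. In the list for cAMP signalling and long-term memory 0 of 32 tested genes were called, with 4 at p under 0.05 before adjustment and 0 by DESeq2. Without single libraries, 0 to 2 genes were called in this list and 0 to 2 in the list for synaptic release. The corresponding counts were 0 of 27 for synaptic release, with 1 at an unadjusted p under 0.05 and 0 by DESeq2. For monoamine signalling they were 0 of 28, with 3 at an unadjusted p under 0.05 and 1 by DESeq2, and for sex determination and courtship 0 of 29, with 2 and 0. Within the memory list the adenylyl cyclase gene rut had 2.39, 5.01 and 2.07 CPM at 5 h, against 5.69, 5.06 and 5.53 CPM in naive flies (log2 -0.81, adjusted p 0.27), and the phosphodiesterase gene dnc had a log2 change of 0.47 (adjusted p 0.55). CrebB, the transcription factor of long-term memory, had a log2 change of -0.04.

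Of the 43 lists with tested genes, 18 held no call, and over their 586 different genes edgeR called 0, 42 had p under 0.05 before adjustment and DESeq2 called 3. These lists include muscle, gut enzymes, haemocytes, chemoreceptors, proteasome and the unfolded protein response. Housekeeping lists were narrow. Cytoplasmic ribosomal protein genes had log2 changes between -0.13 and 0.09, with 0 of 79 called by edgeR, 0 at an unadjusted p under 0.05 and 0 by DESeq2. Respiratory chain genes gave 0 of 71, with 5 at an unadjusted p under 0.05 and 0 by DESeq2, although 62 of the 71 had a log2 change below 0 (median -0.09).

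The list for the head fat body held 6 calls among 22 tested genes (27.3%, against 1.93% of all genes), most of which also stand in the lists above. Of these 3 were higher (Gnmt, Cyp4d21 and Apoltp) and 3 lower (AkhR, sxe2 and the storage protein gene Lsp1beta, log2 -0.69, adjusted p 0.0499). In fits without single libraries 3 or 4 genes of the list were called, and Cyp4d21 was called in 1 of 6 such fits. The 2 lower genes of 20 tested glial genes were CG6126 (log2 -0.74, adjusted p 0.00226) and Tret1-1. Irk1, an inward rectifier potassium channel, was called higher (0.54, adjusted p 0.0326), as was the channel modulator Slob. They were the 2 calls of 28 tested genes in the ion channel list (7.14%, against 1.93% of all genes). Both were called in 2 of 6 fits without 1 library, which gave 0 to 4 ion channel calls, and Irk1 was not called by DESeq2. Jheh1, a juvenile hormone epoxide hydrolase (0.57, adjusted p 0.0116), and MsrA were higher. They were the 2 calls of 25 tested genes of juvenile hormone and ecdysone (8.0%, against 1.93% of all genes). The UDP-glycosyltransferases Ugt35B1 (-0.44) and Ugt37D1 (-0.44) were lower, of 24 tested (8.33%, against 1.93% of all genes). Obp49a (0.47) was the single higher gene of 33 odorant-binding proteins (3.03%, near the 1.93% of all genes).

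Several called genes stood outside all these groups and are named for their size or small p. Irp-1B, an iron regulatory protein, had 223, 223 and 219 CPM at 5 h, against 127, 124 and 128 CPM in naive flies (log2 0.81, SE 0.09, adjusted p 9.8e-05). Idgf1, a secreted chitinase-like growth factor, had a log2 change of 0.86 (adjusted p 0.000184), and atk, a leucine-rich repeat protein of the extracellular matrix, of 1.34 (adjusted p 0.000292). Among the lower genes, Achl had 1.69, 3.005 and 2.37 CPM at 5 h, against 8.98, 17.5 and 7.88 CPM in naive flies (log2 -2.28, SE 0.37, adjusted p 0.0166). phu had 15.2, 11.4 and 7.85 CPM at 5 h, against 47.6, 56.9 and 38.9 CPM in naive flies (log2 -2.05, SE 0.24, adjusted p 0.00539). Both were picked among called genes whose groups did not overlap, so that the separation of their libraries is no further evidence. The call of Achl was lost without any one of the 5 h libraries (adjusted p up to 0.153), and that of phu without 5 h replicate 2 (adjusted p 0.0529). The neuropeptide-like precursor Nplp3 had 1721, 1609 and 1469 CPM at 5 h and 2327, 2296 and 2158 CPM in naive flies (log2 -0.50, adjusted p 0.0027). It was the single called gene of 37 tested in the neuropeptide list (2.7%, near the 1.93% of all genes), which also holds the kinase gene nmo.

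The same contrast was fitted in each of the other strains, none of which shares a library with w+hsp70-. At an adjusted p under 0.05, 3 of 9849 genes were called in hsp70- (0.0305%), 369 of 10514 in hsp70-1c (3.51%, with 1.41% higher and 2.1% lower) and 570 of 10400 in hsp70-4c (5.48%, with 3.04% higher and 2.44% lower). In w+hsp70- 90 calls were shared in the same direction with hsp70-1c, which is 46.6% of its 193 and 24.4% of those in hsp70-1c. With hsp70-4c 60 were shared (31.1% and 10.5%), and with hsp70- 1 was shared (0.518% and 33.3%), namely Cyp6w1. The median standard error of a log2 change was 0.139 in w+hsp70- and 0.162 in hsp70-.

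Direction was shared more widely than calls. Of the 193 called genes, 180 had the same sign in hsp70-, or 93.3%, against 63.3% of all genes tested in both strains. The figures were 180 of 193 (93.3%, against 61.5%) in hsp70-1c and 158 of 192 (82.3%, against 58.6%) in hsp70-4c. The median log2 change of the 98 higher genes was 0.65 in w+hsp70-, where it was chosen, and 0.38 in hsp70-, 0.50 in hsp70-1c and 0.49 in hsp70-4c. For the 95 lower genes the medians were -0.64 in w+hsp70-, -0.43 in hsp70-, -0.60 in hsp70-1c and -0.36 in hsp70-4c.

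Called in w+hsp70-, hsp70-1c and hsp70-4c in the same direction were 42 genes, 25 higher and 17 lower. Gnmt, Sam-S, MsrA, Cyp6w1, Irp-1B, Nep6, Nep7, atk and Idgf1 were among the higher ones, and TotX, Acer, Sodh1, Akr1B, UGP, Gpdh1 and Jabba among the lower. A further 85 genes (43 higher and 42 lower) were called in w+hsp70- and the same way in no other strain, among them the cecropins, Hsp83, GstE7, GstE8, ACC and phu. That a gene was called in a single strain does not show that its change differed between strains.

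**Figure D4:**
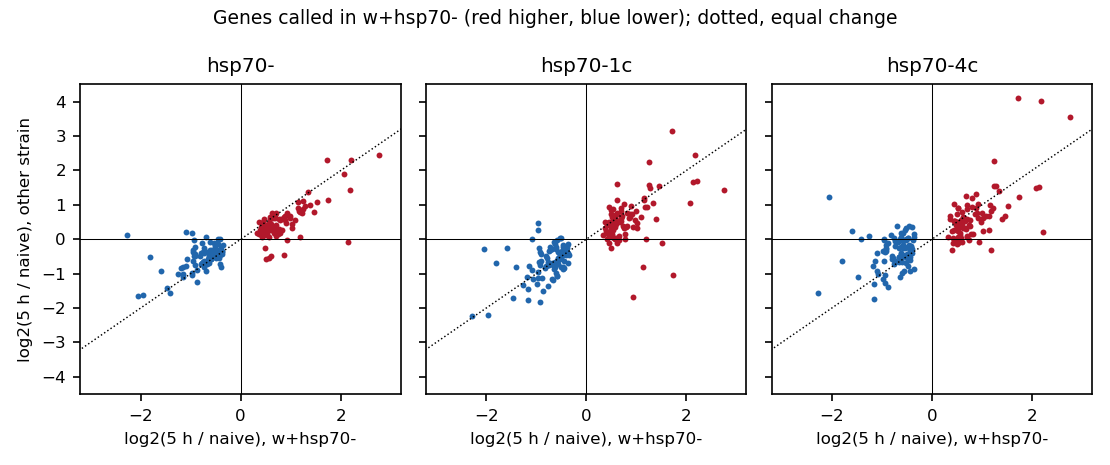
Fitted log2 ratio of 5 h over naive in w+hsp70- (horizontal axis) and in hsp70-, hsp70-1c and hsp70-4c (vertical axis, 1 panel per strain) for the genes called in w+hsp70-, red for higher and blue for lower; the dotted line marks equal change. Most points share their sign in both strains, 180 of 193 in hsp70-, 180 of 193 in hsp70-1c and 158 of 192 in hsp70-4c.

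The difference of the responses was therefore tested itself. Against hsp70-, whose label differs only in w+, 0 of 10223 genes were called by edgeR, 272 of them with p under 0.05 before adjustment, while DESeq2 called 2, Slob and per. In a common scaling of all libraries, Slob had 228 ± 25.7 CPM at 5 h and 160 ± 14.2 CPM in naive w+hsp70- flies, against 135 ± 24.5 CPM at 5 h and 205 ± 11.96 CPM in naive hsp70- flies (SD, n = 3 each). The log2 changes of Slob were 0.51 in w+hsp70- and -0.58 in hsp70-, a difference of 1.11 (SE 0.18, unadjusted p 1.84e-05, adjusted p 0.188 in edgeR and 0.000777 in DESeq2). For per the log2 changes were 0.61 in w+hsp70- and -0.49 in hsp70-, a difference of 1.12 (SE 0.21, adjusted p 0.339 in edgeR and 0.044 in DESeq2). Trained flies were above naive flies for both genes in w+hsp70- and below them in hsp70-, with no overlap of libraries in either strain. Only hsp70- had lower means at 5 h. Mean Slob was 230 CPM at 5 h and 148 CPM in naive hsp70-1c flies, and 236 and 167 CPM in hsp70-4c. Mean per was 59.8 and 20.1 CPM in hsp70-1c, and 55.9 and 45.0 CPM in hsp70-4c. Libraries of the groups overlapped for Slob in hsp70-1c and for per in hsp70-4c.

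Against hsp70-1c, edgeR called 0 of 10368 genes, with 631 at an unadjusted p under 0.05. CG5966 came nearest, with a log2 change of 2.07 in w+hsp70- and 1.06 in hsp70-1c, a difference of 1.02 (SE 0.16, adjusted p 0.0564). CG5966 had 79.9 ± 5.99 CPM at 5 h and 19.0 ± 0.855 CPM in naive w+hsp70- flies (SD, n = 3 each). In hsp70-1c it had 81.4 ± 6.16 CPM at 5 h (SD, n = 3) and 39.0 ± 5.51 CPM in naive flies (SD, n = 4). Naive libraries of the 2 strains did not overlap, at 18.2 to 19.9 CPM in w+hsp70- and 33.5 to 45.9 CPM in hsp70-1c.

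The libraries of hsp70-4c set against its 5 h libraries are naive by their time point label, but their titles read 5h-control, unlike the plain control of the other strains, so that their state relative to training is less certain. Against hsp70-4c, 14 of 10447 genes were called (0.134%), 13 with a lower (0.124%) and 1 with a higher change (0.00957%) in w+hsp70-. The largest difference was that of CG13607, with log2 changes of -1.59 in w+hsp70- and 0.25 in hsp70-4c (difference -1.84, SE 0.22, adjusted p 0.00144). CG13607 had 14.5, 12.7 and 9.33 CPM at 5 h, against 32.3, 40.8 and 37.0 CPM in naive flies of w+hsp70-. CG14400 likewise was lower at 5 h in w+hsp70- (log2 -1.26) and near level in hsp70-4c (0.10), with a difference of -1.36 (SE 0.17, adjusted p 0.00144). The immune-induced Bomanin peptides BomS1, BomS6 and BomBc2 were 3 of the 14, with fitted changes below 0 in w+hsp70- and above 0 in hsp70-4c. None of them was called in both strains. In hsp70-4c alone BomS1 was called (adjusted p 0.00334), whereas BomS6 and BomBc2 were not (0.154 and 0.0636). In w+hsp70- alone BomS1 was not called. GstE9 was the one with a higher change in w+hsp70-. Depending on which of 13 libraries was left out, 4 to 36 genes were called. The fewest remained without w+hsp70- naive replicate 2 and the most without hsp70-4c 5 h replicate 3.

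**Figure D5:**
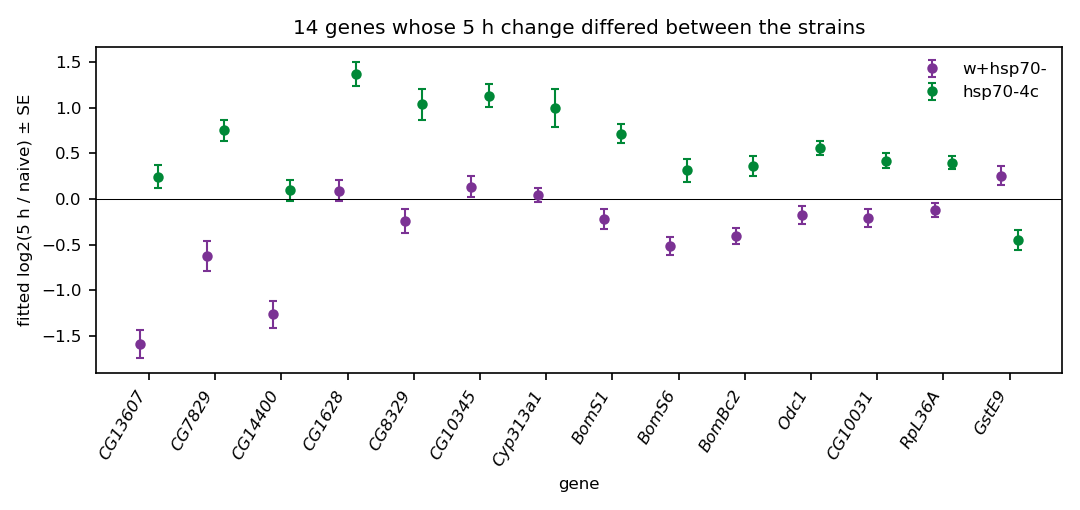
Fitted log2 ratio of 5 h over naive with its SE for the 14 genes whose change differed between w+hsp70- (purple, 3 libraries in each group) and hsp70-4c (green, 3 libraries at 5 h and 4 naive), ordered by the difference. For CG13607 and CG14400 the w+hsp70- values of -1.59 and -1.26 are the low ones, whereas for CG1628 and Cyp313a1 the w+hsp70- values of 0.09 and 0.04 lie near 0 and the hsp70-4c values are 1.37 and 0.998.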

How the data were processed

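RNA of male heads was sequenced with a directional kit, per the labels' protocols. Reads were trimmed with Trimmomatic, aligned with STAR 2.5.0a to dm6 and counted with featureCounts 1.5.0-p1, per the submitters' processing notes; strand setting and annotation release are not given in the sources used here. The deposited files hold raw counts of reads per gene for 17559 genes, and the 12 status lines were left out. Symbols were found for 17253 identifiers and not for 306, and positions come from the Ensembl BDGP6 annotation of dm6. Counts were fitted with edgeR 4.0.16 (limma 3.58.1, R 4.3.3) after trimmed-mean scaling and its default filter on low counts, by a two-sided quasi-likelihood test with Benjamini-Hochberg adjustment over all genes tested, threshold 0.05 and no minimum fold. CPM are counts per 1000000 assigned reads after scaling, and SE is the log2 change over the root of F. Differences of responses are interaction contrasts. DESeq2 1.42.0 was an alternative, as were its size factors, no filter, all 32 libraries, a replicate block and leaving out each library. The procedure was tested on simulated data. Named genes were up to 15 called genes per direction with the largest change (at least 5 CPM, groups not overlapping), up to 4 members per list, and genes called in several strains; others are named after their values were seen. The members and the gene lists were chosen with earlier results of these data known. The pools are labelled as biological replicates, and with 3 against 3 an exact permutation test cannot go below p = 0.1. With 5540847 to 6917014 assigned reads per w+hsp70- library, intervals cover counting and replicate error of these libraries alone.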

Additional observations from a re-analysis of the deposited data

Results flagged for a closer look

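Each of 14 genes had a change 5 h after training that differed between w+hsp70- and hsp70-4c in a direct test of the difference (interaction contrast, edgeR, adjusted p under 0.05; w+hsp70- minus hsp70-4c, log2). The difference was 0.71 for GstE9, which was not called in w+hsp70- (log2 0.26, adjusted p 0.316) and was lower in hsp70-4c (-0.45, adjusted p 0.0322).

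The difference was -1.84 for CG13607 and -1.36 for CG14400, both called lower in w+hsp70-, and -1.37 for CG7829. CG7829 had 60.4 ± 13.9 CPM at 5 h and 92.6 ± 12.5 CPM in naive w+hsp70- flies (SD, n = 3 each), a change that was not called. The Bomanin peptide genes differed by -0.93 for BomS1, -0.83 for BomS6 and -0.76 for BomBc2, and the adjusted p in w+hsp70- alone was 0.53 for BomS1, 0.0148 for BomS6 and 0.0259 for BomBc2.

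The remaining 7 were not called in w+hsp70- and were higher in trained hsp70-4c flies. They were CG1628 at -1.28, CG8329 at -1.27, CG10345 at -0.995, Cyp313a1 at -0.95, Odc1 (ornithine decarboxylase) at -0.74, CG10031 at -0.63 and RpL36A (a ribosomal protein) at -0.52. CG8329, for example, had 1068 ± 199 CPM at 5 h and 1259 ± 112 CPM in naive w+hsp70- flies (SD, n = 3 each), against 2842 ± 413 CPM at 5 h (n = 3) and 1391 ± 183 CPM in naive hsp70-4c flies (n = 4).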

How the results depend on the processing

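The 193 calls in w+hsp70- became 189 with DESeq2 size factors and 202 with the DESeq2 test, 468 with no filter on low counts and 107 with all 32 libraries in 1 fit. They ranged from 95 to 253 without single libraries: 95 without naive replicate 1 and 123 without 5 h replicate 3. All 193 kept their sign in each of these fits, and 66 (38 higher and 28 lower) were called without each of the 6 libraries in turn. Of 79 named called genes, 38 were called without each library and 29 under every alternative. With all 32 libraries in 1 fit, 33 of the 79 were no longer called, among them Hsp83, Lst, Nplp3 and Cpr100A. The 0 genes that differed from hsp70- became 1 with no filter and 2 with the DESeq2 test, and remained 0 whichever library was left out. The 0 genes that differed from hsp70-1c became 1 with DESeq2 size factors and 0 to 5 without single libraries. The 14 that differed from hsp70-4c became 9 with all 32 libraries and 4 to 36 without single libraries. The cause of these shifts was not tested, except that removing a library or the filter changes the number of samples or of genes tested.

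Replicate numbers were tried as a block. Same-numbered 5 h and naive libraries deviated from their group means with correlations of -0.10, 0.12 and 0.10, so the numbers are not taken to pair the samples. The replicate block gave 270 calls, 187 of them among the 193, and 2 genes that differed from hsp70-. With it the log2 change of Gnmt was 2.78 (adjusted p 0.0589) and was not called, nor was Cyp6a8. Low counts limit the genes under a few CPM.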
